A study of Mus musculus with 45 samples.

Results

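The comparison was made within mice. For 20 C57BL/6J mice, RNA of the medial prefrontal cortex was sequenced from cells isolated on ACSA2 beads and from a total homogenate, and the difference between these fractions was compared between 10 ethanol mice and 10 water mice. ACSA2 is an antigen on the surface of astrocytes, and the protein that bears it is ATP1B2. These are 20 of the 24 mice in the labels and 40 of the 44 libraries with counts, chosen because both fractions of the mouse had a count file. Ethanol mice had 72 days of access to 15% (v/v) ethanol on every other day, with water alone on the days between, and were killed 24 h after their last drinking day. Water mice drank water for the same 72 days. The labels name no transgene in either group and state no age or sex.

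From each cell suspension 5% was set aside as the homogenate, and the rest was dissociated, freed of myelin on 25% Percoll and passed over the beads. The value followed here is, for each gene and mouse, log2 CPM (the read count of a gene relative to the scaled total of its library) in the isolated fraction minus log2 CPM in the homogenate. It is called the fraction difference. The ethanol contrast is the fraction difference of ethanol mice minus that of water mice, on the log2 scale. It is the interaction between ethanol drinking and cell isolation, and a gene that differs between ethanol and water mice by the same factor in both fractions has a contrast of 0.

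Astrocytes take up glutamate and potassium, store glycogen, make cholesterol and send end-feet onto vessels, where they share a basement membrane with endothelial cells and pericytes. Oligodendrocytes make myelin, their precursors carry the proteoglycan NG2, and microglia are the resident macrophages. A fraction difference above 0 means that a transcript took a larger share of the captured cells' RNA than of the whole tissue's. In such bulk samples, fewer cells of a type and less RNA per cell cannot be told apart.

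The 5 shallowest isolated libraries were all from water mice. The isolated libraries held 1028493 to 3248804 gene counts in ethanol mice and 504492 to 2938854 in water mice, and 5 water libraries (mice 68, 70, 80, 81 and 82) but 0 ethanol libraries held under 1000000. The homogenates held 4960739 to 9109247 counts in ethanol mice and 3973666 to 7837038 in water mice. Of 9 technical values per mouse, such as totals, unaligned shares and numbers of genes with counts, the lowest p was 0.0902 in a two-sided permutation test of 100000 resamples, and every adjusted p was 0.711 or higher. The spread of the fraction difference between mice had a median SD over genes that averaged 20 counts or more per library in each fraction of 0.31 in ethanol mice and 0.41 in water mice (n = 10 each). Depth was varied by leaving out those 5 mice and by thinning every library to the smallest total. Of 38 medians of the gene lists described below, 27 moved by over 1.5 times or changed sign without those mice, as did 19 of 37 in thinned libraries.

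No gene had a fraction difference that passed the test between ethanol and water mice. Of 13814 genes tested with edgeR's quasi-likelihood test, with mouse as a block and Benjamini-Hochberg adjustment, 0 were higher (0%) and 0 were lower (0%) at an adjusted p under 0.05, and the lowest adjusted p was 0.607. At an unadjusted p under 0.05 there were 719 genes (5.2%), 340 with positive and 379 with negative contrasts, where 690.7 would be expected from uniform p values. The contrast was above 0 in 6757 genes (48.9%). In 0 genes (0%) did the 10 ethanol mice lie wholly apart from the 10 water mice. DESeq2 with the mouse block also called 0 genes and had 662 at an unadjusted p under 0.05.

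The fraction differences themselves were large and alike in both groups. In ethanol mice 2891 genes (20.9%) were at least 2-fold higher in the isolated fraction and 3173 (23%) were at least 2-fold lower, past an adjusted p of 0.05. In water mice 2763 (20%) were higher and 3092 (22.4%) were lower. In both groups and with the same sign, 5501 genes passed, and Pearson's r across the 13814 genes was 0.984, a description over genes that are not independent replicates. The test bounded the contrast more tightly for genes with more counts. Among the 9477 well-counted genes, those that averaged 20 counts or more per library in each fraction, the 95% interval had a median half-width of 0.34 (1.27-fold), and it lay inside 2-fold in either direction for 9148 of them (96.5%) and inside 1.5-fold for 6844 (72.2%). A p that misses the threshold does not show that the groups were equal within these intervals.

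**Figure D1:**
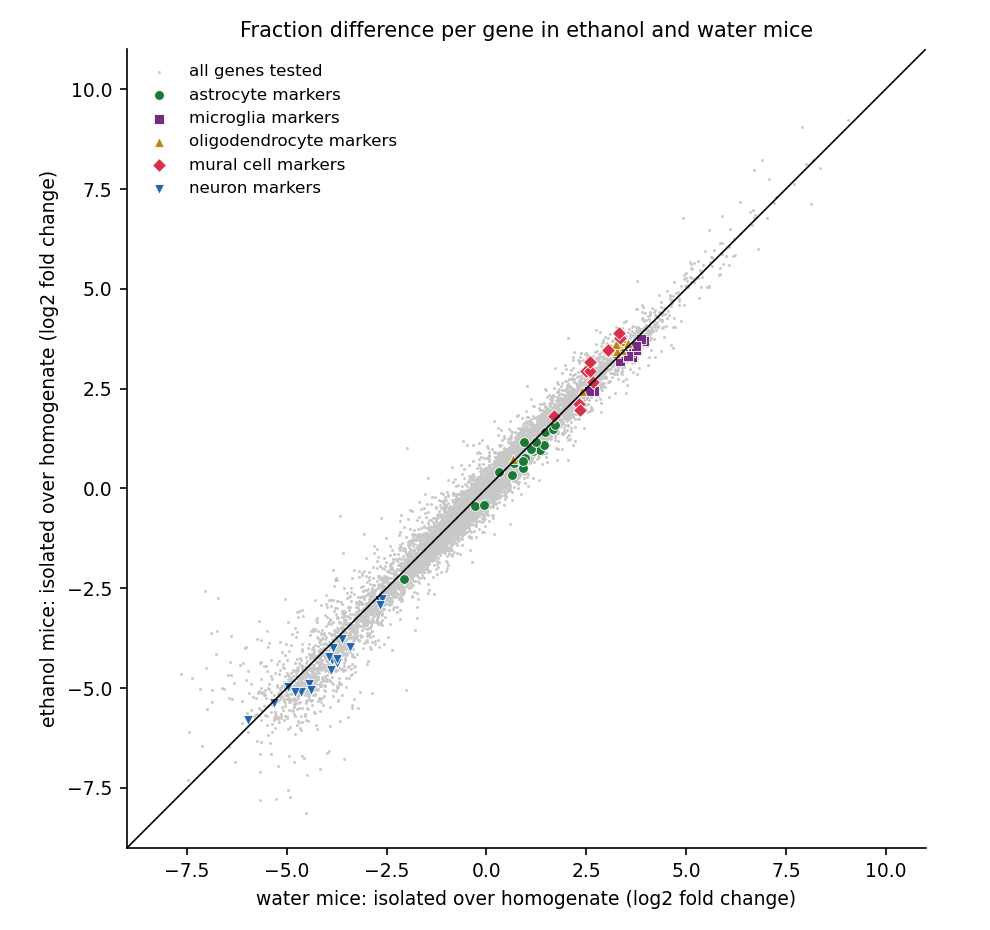
Fraction difference (log2 fold change, isolated over homogenate) of each of 13814 genes in ethanol mice (vertical axis) and in water mice (horizontal axis), with 5 cell type marker lists coloured and the line of equality drawn. Genes lie along the line (r = 0.984), with microglial and oligodendrocyte markers near 3.5 and neuronal markers near -4.

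The genes are named by rank, so their values are a description of the extremes of 13814 genes. Cspg4, Negr1 and Lxn among them were also of interest from earlier results of these data. Of the 8 well-counted genes with the lowest p and a positive contrast, the first was Cspg4, which encodes the NG2 proteoglycan of oligodendrocyte precursors and pericytes (chr9:56865033-56899870, plus strand, mm10). Its fraction difference ran from 1.76 to 2.53 with a median of 2.03 in ethanol mice, and from 1.08 to 1.95 with a median of 1.40 in water mice. All 10 ethanol mice lay above the water mean, and the groups overlapped. In the isolated fraction Cspg4 had 171 to 286 CPM (median 212) in ethanol mice and 116 to 203 CPM (median 137) in water mice, while its median in the homogenate was 51.0 CPM in ethanol mice and 54.2 CPM in water mice. The contrast was 0.59 ± 0.13 (SE; p = 7.2e-05; adjusted p = 0.607 in edgeR's quasi-likelihood test).

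Chst8, which encodes a sulfotransferase that acts on N-acetylgalactosamine (chr7:34674468-34812711, minus strand), had the largest contrast of these 8 genes. In single mice its fraction difference lay between -0.54 and 1.53 with a median of 0.57 in ethanol mice, and between -1.29 and 0.17 with a median of -0.25 in water mice. It was above 0 in 9 of 10 ethanol mice and in 2 of 10 water mice, and the groups overlapped. The contrast was 1.02 ± 0.23 (p = 0.00013; adjusted p = 0.607). Chst8 was 1 of 2 genes past an adjusted p of 0.05 for the fraction difference in both groups of mice but with opposite signs, at 0.58 ± 0.15 in ethanol mice and -0.44 ± 0.17 in water mice. The other, chosen after its values were seen, was the neutrophil granule gene Ngp, which had a mean of 2.60 counts per isolated library and is not interpreted further.

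Sntb2 encodes a syntrophin, an adaptor of the dystrophin complex. Fraction differences were -1.22 to -0.31 (median -0.71) in ethanol mice and -2.47 to -0.66 (median -1.62) in water mice, a contrast of 0.78 ± 0.20 with all 10 ethanol mice above the water mean. Rnd3, whose product loosens actin stress fibres, had medians of 1.20 in ethanol mice and 0.49 in water mice, with 9 of 10 ethanol mice above the water mean. Lamc1, which encodes the laminin gamma-1 chain of basement membranes, had 1.55 to 2.51 (median 2.14) in ethanol mice and 1.19 to 1.96 (median 1.50) in water mice, a contrast of 0.50 ± 0.13. Its groups overlapped, with 9 of 10 ethanol mice above the water mean.

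Dact1, which encodes a Dishevelled-binding regulator of Wnt signalling, had medians of 0.91 in ethanol mice and 0.21 in water mice, a contrast of 0.86 ± 0.22. Exons of Dact1 overlap those of another gene on the opposite strand, and reads of such genes cannot be told apart without the strand setting of the counting. Sh3bp4, which encodes a regulator of endocytosis, had a contrast of 0.63 ± 0.18, and Rnd3 one of 0.86 ± 0.23. Stk39, which encodes the SPAK kinase that acts on cation-chloride cotransporters, had a range of -0.25 to 0.36 (median 0.01) in ethanol mice and of -0.94 to -0.07 (median -0.40) in water mice. Its contrast was 0.42 ± 0.12, and Slc12a2, which encodes a cotransporter that SPAK phosphorylates, had a contrast of 0.36 ± 0.18. That was the highest contrast in the list of 15 genes of potassium and water channels and gap junctions, where 11 were below 0. A link between Stk39 and Slc12a2 was not tested. The groups overlapped for Dact1, Sh3bp4, Rnd3, Stk39 and Slc12a2.

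Of the 8 well-counted genes with the lowest p and a negative contrast, Negr1 led. It encodes an adhesion protein of the IgLON family on neurons and astrocytes (chr3:156561794-157316445, plus strand). Its fraction difference ran from -3.68 to -2.79 with a median of -3.50 in ethanol mice, and from -3.28 to -2.15 with a median of -2.74 in water mice. All 10 ethanol mice lay below the water mean, and the groups overlapped. In the isolated fraction Negr1 had 21.5 to 44.2 CPM (median 25.4) in ethanol mice and 28.9 to 50.2 CPM (median 40.6) in water mice, beside homogenate medians of 278 CPM in ethanol mice and 243 CPM in water mice. The contrast was -0.70 ± 0.15 (p = 0.00011; adjusted p = 0.607).

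Lxn encodes latexin, an inhibitor of carboxypeptidases (chr3:67457998-67463926, minus strand), and its exons overlap those of Gfm1 on the opposite strand. It had fraction differences from -0.25 to 0.90 (median 0.28) in ethanol mice and from 0.38 to 1.48 (median 0.99) in water mice. All 10 ethanol mice lay below the water mean, and the contrast was -0.68 ± 0.16. Cntnap2, which encodes the Caspr2 protein that gathers potassium channels along myelinated axons, had medians of -3.05 in ethanol mice and -2.68 in water mice and a contrast of -0.56 ± 0.17. Arhgef4 had a contrast of -0.45 ± 0.14 and shares exon sequence with genes on the opposite strand.

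The remaining genes with negative contrasts were Pamr1, B3gat3, Tspan4 and Itm2c. B3gat3, which encodes the enzyme that adds the last sugar of the linker of heparan and chondroitin sulfate chains, ran from -1.73 to -1.02 (median -1.35) in ethanol mice and from -1.26 to -0.47 (median -0.86) in water mice, a contrast of -0.49 ± 0.13. The tetraspanin gene Tspan4 had medians of 1.31 in ethanol mice and 2.05 in water mice and a contrast of -0.71 ± 0.20, and it overlaps Chid1 on the opposite strand. Pamr1, which encodes a secreted protein with a peptidase-like domain, had a contrast of -0.98 ± 0.25. Itm2c encodes a small membrane protein of the BRICHOS family. It ranged from -1.23 to -0.52 in ethanol mice and from -0.70 to -0.31 in water mice, so that the groups overlapped over a narrow band, and the contrast was -0.37 ± 0.11. For all 8 genes, 10 of 10 ethanol mice lay below the water mean.

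**Figure D2:**
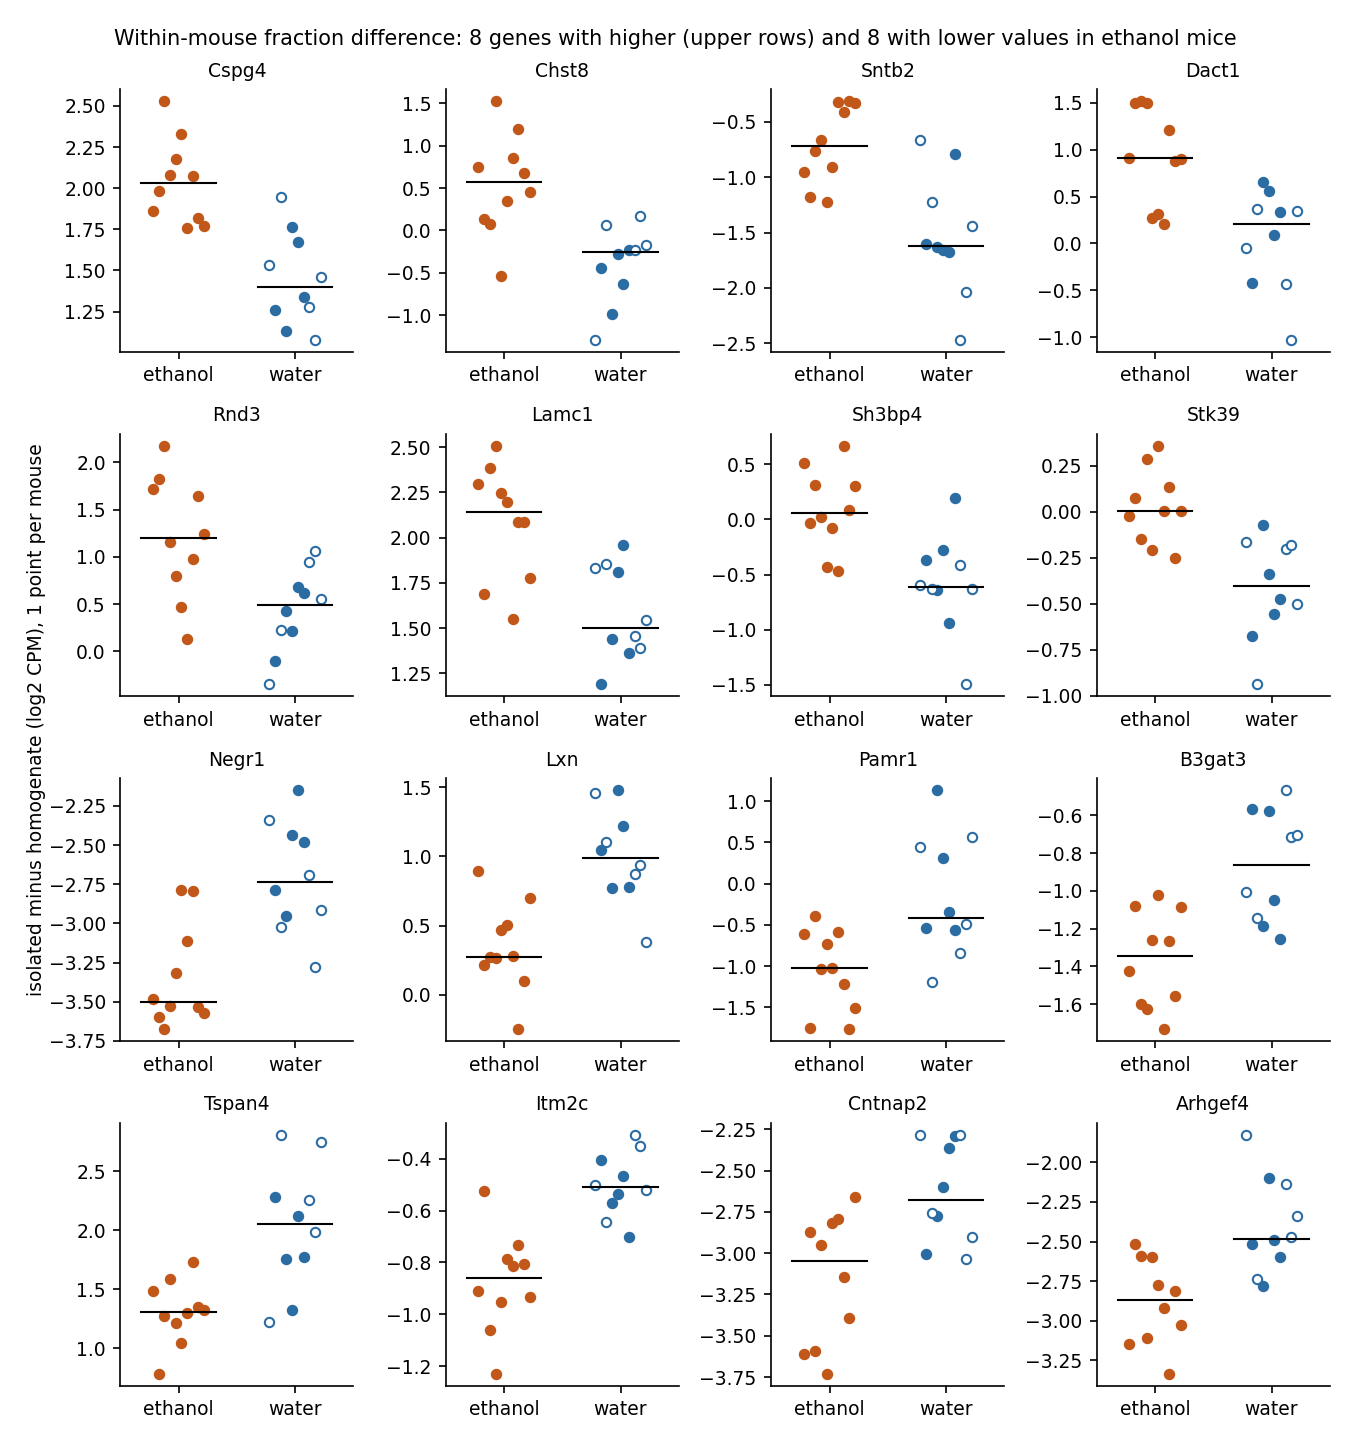
Fraction difference (isolated minus homogenate, log2 CPM) of the 16 genes named by lowest p, with ethanol mice on the left and water mice on the right of each panel. Each point is 1 mouse (n = 10 per group), open points are the 5 water mice with under 1000000 isolated counts, and lines are medians. The groups overlap in every panel.

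A contrast can come from either fraction, and its parts were set side by side, with no test. For Dact1 nearly all of it lay in the isolated fraction, where ethanol mice minus water mice came to 0.85 ± 0.22 (SE), beside -0.03 ± 0.15 in the homogenate. Cspg4 had 0.52 ± 0.11 in the isolated fraction and -0.07 ± 0.08 in the homogenate, and Stk39 had 0.40 ± 0.09 and -0.03 ± 0.07. Other genes had parts of opposite sign. Chst8 had 0.45 ± 0.20 in the isolated fraction and -0.50 ± 0.18 in the homogenate, and Sntb2 had 0.36 ± 0.19 and -0.45 ± 0.15.

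Among genes with negative contrasts, Itm2c had its larger part in the homogenate (0.27 ± 0.06), beside -0.11 ± 0.06 in the isolated fraction. Pamr1 had 0.51 ± 0.26 in the homogenate and -0.40 ± 0.23 in the isolated fraction. Lxn had -0.57 ± 0.15 in the isolated fraction and 0.09 ± 0.07 in the homogenate, and Negr1 had -0.54 ± 0.13 and 0.10 ± 0.09. Over the 719 genes with an unadjusted p under 0.05, the larger part lay in the isolated fraction in 589 (81.9%), beside 64.1% of all genes tested. The isolated values also varied more between mice, with a median SD of 0.27 in ethanol mice and 0.34 in water mice, beside 0.16 and 0.21 in the homogenates of ethanol and of water mice.

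**Figure D3:**
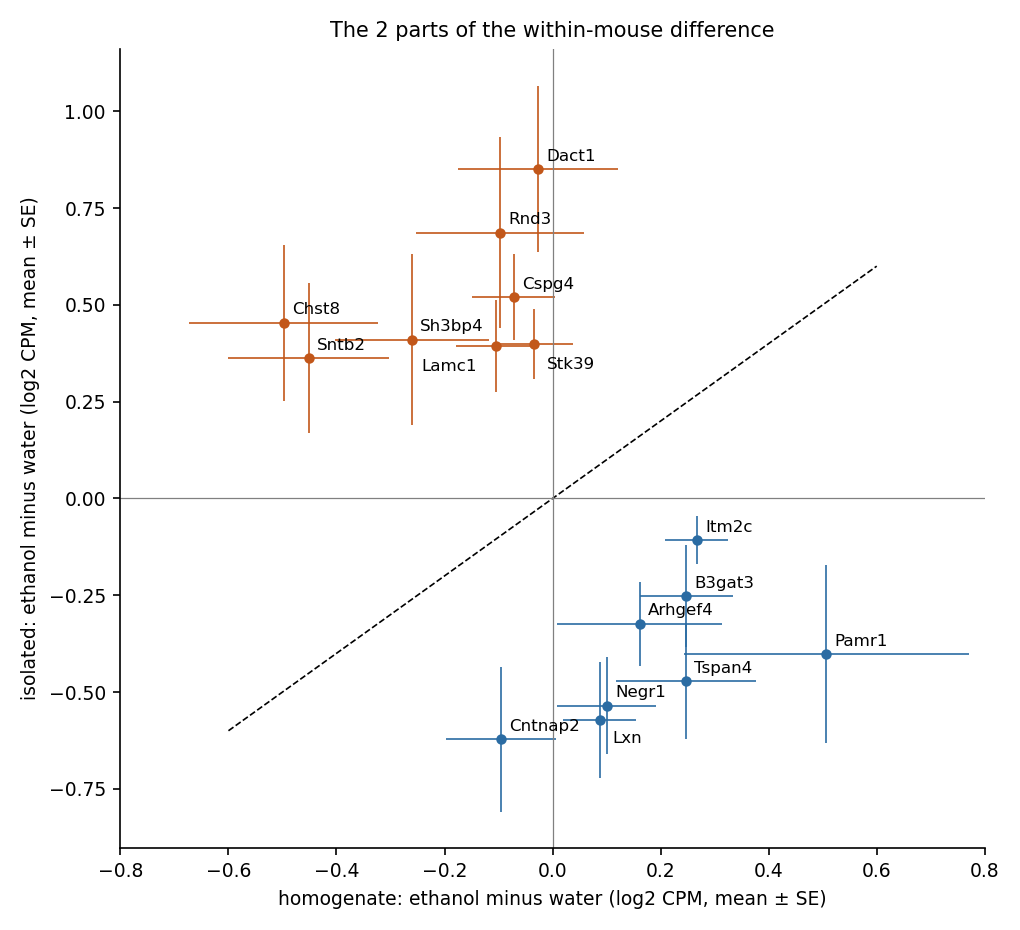
Ethanol minus water difference of mean log2 CPM in the isolated fraction (vertical axis) and in the homogenate (horizontal axis) for the 16 genes named by lowest p, with SE bars (n = 10 mice per group). The dashed line marks equal differences; the 8 genes with positive contrasts lie above it and the 8 with negative contrasts below it. Chst8 and Sntb2 lie to the left of 0, Pamr1 and Itm2c to the right.

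Genes whose level with ethanol was of interest from earlier results of these data were followed by name. Gprc5c, an orphan receptor gene, had 20.1 to 61.9 CPM (median 50.1) in the isolated fraction of ethanol mice and 20.4 to 39.5 CPM (median 27.0) in that of water mice. Its homogenate medians were 6.50 CPM in ethanol mice and 6.63 CPM in water mice, and its contrast was 0.73 ± 0.28 (adjusted p = 0.921). Amotl2, which encodes an angiomotin family partner of YAP, had fraction differences of 2.11 to 2.91 (median 2.40) in ethanol mice and 1.39 to 2.65 (median 1.95) in water mice, a contrast of 0.44 ± 0.14 with all 10 ethanol mice above the water mean. Ldhb, a lactate dehydrogenase gene, had medians of -0.50 in ethanol mice and -0.19 in water mice and a contrast of -0.35 ± 0.12. None of these passed the test.

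For Atp2b4 and Tmem88 the fractions moved to the same side. Atp2b4, which encodes a plasma membrane calcium pump, was higher in ethanol mice by 0.19 ± 0.15 in the isolated fraction and by 0.43 ± 0.12 in the homogenate, and its contrast was -0.27 ± 0.15. Its fraction difference ran from -4.16 to -3.16 (median -3.81) in ethanol mice and from -4.39 to -3.05 (median -3.45) in water mice, and the groups overlapped over most of their range. Tmem88, which encodes a membrane inhibitor of Wnt signalling and overlaps Naa38 on the opposite strand, had differences of 0.44 ± 0.30 in the isolated fraction and 0.54 ± 0.16 in the homogenate. Its contrast was -0.32 ± 0.28, and its sign was not stable, with 0.23 when all libraries were thinned to the smallest total.

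The markers of astrocytes, the cells the beads were meant to capture, came first among the cell type lists. Of 23 astrocyte markers, 19 were higher in the isolated fraction in ethanol mice and 19 in water mice, with median fraction differences of 0.94 and 0.97. The ethanol contrast was below 0 in 21 of the 23, with a median of -0.18 beside -0.01 over all genes. Of the 23, 5 had an unadjusted p under 0.05, all negative, beside 5.2% of all genes in either direction. Without the 5 shallow water mice all 23 were below 0, with a median of -0.32. The water mice left then included mouse 73, whose list median of 1.71 was the highest of any mouse. Per mouse, the list median ran from 0.42 to 1.07 in ethanol mice and from 0.38 to 1.71 in water mice, so the groups overlapped. With 1 mouse left out in turn, the median contrast ran from -0.24 to -0.12. None of the 23 markers passed the adjusted test.

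The astrocyte list mixes secreted proteins, receptors, enzymes and channels. Clu, which encodes the chaperone clusterin, had fraction differences of 0.09 to 0.98 (median 0.50) in ethanol mice and 0.44 to 1.44 (median 0.89) in water mice, a contrast of -0.40 ± 0.15. Ntsr2, a neurotensin receptor gene, had a contrast of -0.34 ± 0.15. Aldoc, the brain aldolase gene, had -0.32 ± 0.14, and Gjb6, which encodes the gap junction protein connexin 30, had -0.38 ± 0.17. In each of these 4 genes the groups overlapped, and at least 8 of 10 ethanol mice lay below the water mean. They were named for low p or for their role, so this count follows in part from the choice.

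Atp1b2, which encodes the protein that carries the capture antigen, was compared as a check of the isolation. It had 606 to 1148 CPM (median 994) in the isolated fraction of ethanol mice and 633 to 1736 CPM (median 1037) in that of water mice. Its fraction difference ran from 0.28 to 1.12 (median 0.67) in ethanol mice and from 0.08 to 1.55 (median 0.90) in water mice, a contrast of -0.24 ± 0.15 with 3 of 10 ethanol mice above the water mean. Gfap, whose product is the main intermediate filament of astrocytes, was lower in the isolated fraction, with a median of -2.34 in ethanol mice and -2.47 in water mice. Its contrast was -0.19 ± 0.36, and its sign depended on water mouse 74, which stood at 0.03; without that mouse the contrast was 0.08.

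Summed over the 23 astrocyte markers, the isolated fraction held 13437 to 23952 CPM (median 19911) in ethanol mice and 15234 to 36361 CPM (median 20532) in water mice. The homogenate held medians of 13626 CPM in ethanol mice and 13899 CPM in water mice. The isolated fraction also held other glia: in it the 16 oligodendrocyte markers summed to a median of 21289 CPM in ethanol mice and 19799 CPM in water mice, and the 17 microglial markers to 9321 CPM in ethanol mice and 10584 CPM in water mice. No member of the astrocyte, microglia, oligodendrocyte, precursor, neuron, endothelial or mural list was at 0 in every library of a group in either fraction.

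Microglial markers were higher in the isolated fraction for all 17 members in both groups, with median fraction differences of 3.47 in ethanol mice and 3.67 in water mice. The contrast was below 0 in all 17, with a median of -0.19, but without the 5 shallow water mice 8 were below 0 and 9 above, with a median of 0.04. The complement genes C1qa and C1qb, whose products tag synapses and debris, had the lowest p of this list, at -0.36 ± 0.17 and -0.32 ± 0.18, and -0.19 and -0.0041 without the shallow water mice. Per mouse, the list median ran from 3.10 to 3.81 in ethanol mice and from 2.67 to 4.27 in water mice. The 2 highest values, 4.27 and 4.26, were those of water mice with shallow libraries. In thinned libraries 15 of the 17 contrasts were below 0, with a median of -0.17. Without water mouse 73 the median was -0.31.

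All 16 oligodendrocyte markers were higher in the isolated fraction in both groups, with median fraction differences of 3.52 in ethanol mice and 3.32 in water mice. The contrast was above 0 in 15 of 16, with a median of 0.16, and 0 had an unadjusted p under 0.05. Myrf, the transcription factor gene of myelin formation, had 0.39 ± 0.26, and Ugt8a, which encodes the enzyme of galactosylceramide synthesis, had 0.35 ± 0.28. This direction rested on water mouse 73, whose homogenate held 10856 CPM of the 16 markers, where the median of the water mice was 3062 CPM. Without that mouse the list median was -0.06, and without the 5 shallow water mice, which left mouse 73 as 1 of 5, it was 0.58 with all 16 above 0. In thinned libraries 14 of 16 were above 0, with a median of 0.09. Among ethanol mice, the homogenate of mouse 78 stood highest at 8071 CPM, beside a median of 2956 CPM.

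Of the 11 oligodendrocyte precursor markers 7 had contrasts above 0 and 4 below, with a median of 0.06. The median was 0.26 over the 8 well-counted members, and all 8 members tested in thinned libraries were above 0, with a median of 0.28. Leaving out the 5 shallow water mice gave 6 of 11 above 0 and a median of 0.03, and the median was -0.14 without ethanol mouse 77. Beside 5.2% of all genes, 2 members had an unadjusted p under 0.05. They were Cspg4, described above, and Olig2, which encodes a transcription factor of the oligodendrocyte lineage, with fraction differences of 1.90 to 2.64 (median 2.42) in ethanol mice and 1.20 to 2.62 (median 2.03) in water mice. The contrast of Olig2 was 0.38 ± 0.15. Summed over the 11 markers, the isolated fraction held 818 to 1412 CPM in ethanol mice and 628 to 1698 CPM in water mice. The homogenate held 442 to 555 CPM in ethanol mice and 454 to 750 CPM in water mice.

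**Figure D4:**
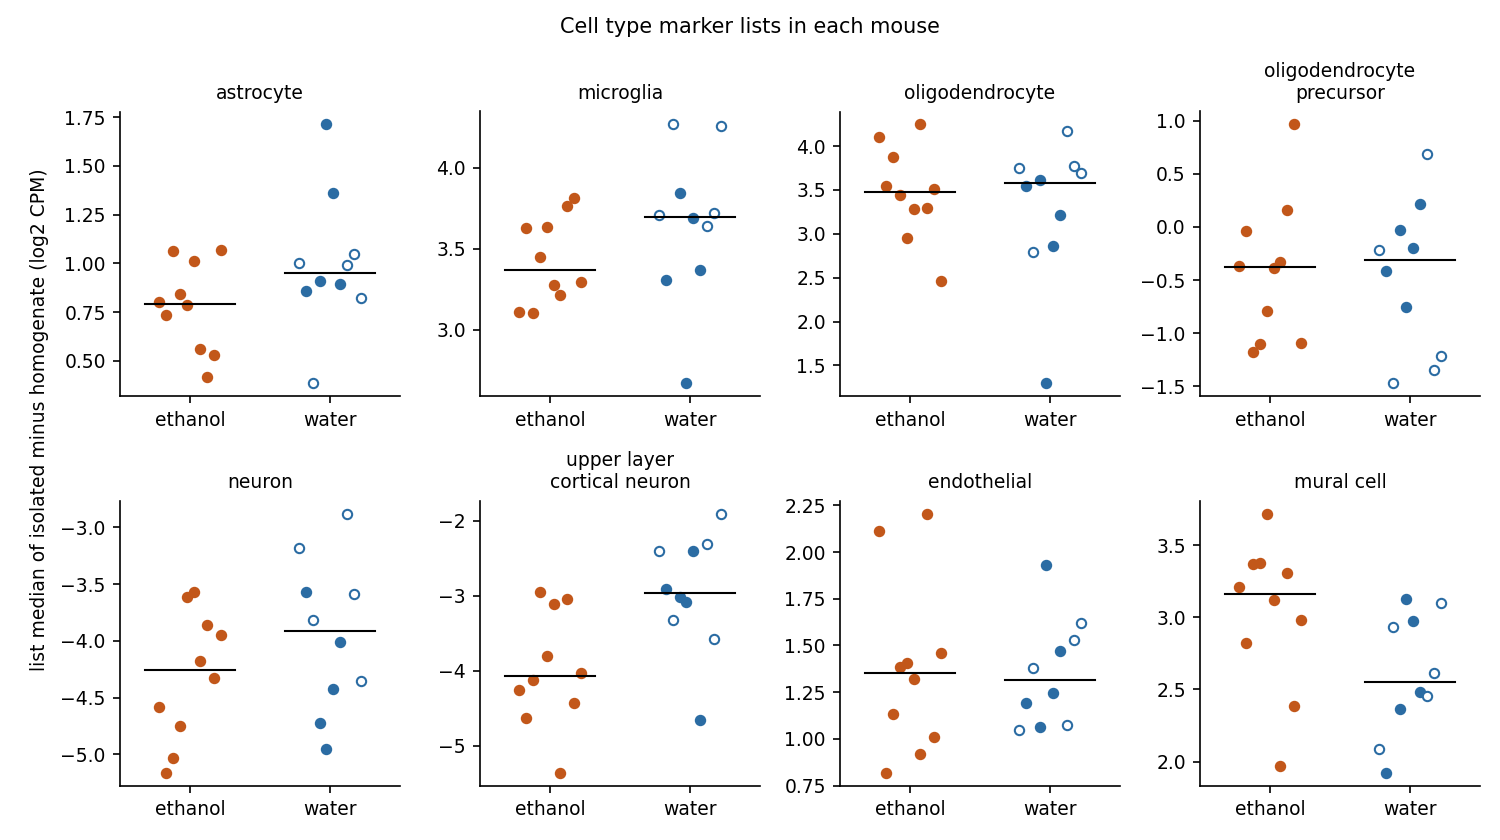
Median fraction difference (isolated minus homogenate, log2 CPM) over the members of 8 cell type marker lists in each mouse, with ethanol mice on the left and water mice on the right of each panel. Each point is 1 mouse (n = 10 per group), open points are the 5 water mice with under 1000000 isolated counts, and lines are medians over mice. Water mouse 73 is the lowest point for oligodendrocytes (1.30) and microglia (2.67) and the highest for astrocytes (1.71).

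Vessel wall transcripts had the most positive median among cell type lists with at least 8 members tested. The ependymal and choroid plexus list, with 7 tested, had a higher median of 0.79. Pdgfrb and Abcc9, members of the mural list, were among the genes followed from earlier results of these data. All 11 mural cell markers tested were higher in the isolated fraction in both groups, with median fraction differences of 2.95 in ethanol mice and 2.60 in water mice. The contrast was above 0 in 8 of 11 and below 0 in 3, the lowest at -0.40, with a median of 0.39. The median was 0.40 without the 5 shallow water mice, when 9 of 11 were above 0. With each mouse left out in turn, the median ran from 0.31 to 0.50. The isolated fraction held 1651 to 3234 CPM of these markers (median 2500) in ethanol mice and 1280 to 2182 CPM (median 1631) in water mice, while the homogenate medians were 254 CPM in both groups.

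Pdgfrb, the platelet-derived growth factor receptor gene of pericytes, had median fraction differences of 3.08 in ethanol mice and 2.50 in water mice, a contrast of 0.44 ± 0.18. Abcc9, which encodes the sulfonylurea receptor subunit of the pericyte potassium channel, had 2.91 to 4.73 (median 3.83) in ethanol mice and 2.87 to 3.96 (median 3.21) in water mice, a contrast of 0.57 ± 0.20. Exons of Abcc9 overlap another gene on the opposite strand. Notch3, the Notch receptor gene of mural cells, had 0.57 ± 0.25, and Vtn, which encodes vitronectin, had 0.39 ± 0.19. At least 8 of 10 ethanol mice lay above the water mean for each of these 4 genes, the groups overlapped, and none passed the adjusted test. All 4 were members with positive contrasts, named for low p, for their role or from earlier results.

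Endothelial markers had a median contrast closer to 0. Of 15 members, all higher in the isolated fraction in both groups, 10 had contrasts above 0 and 5 below, with a median of 0.06 and 0 at an unadjusted p under 0.05. The median was -0.06 without ethanol mouse 76. Esam, an endothelial adhesion gene, had 0.18 ± 0.17, and Abcb1a, which encodes the efflux pump P-glycoprotein of the blood-brain barrier, had 0.21 ± 0.18. The difference between the mural and endothelial lists was not tested.

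Genes of the extracellular matrix and basement membrane lay beside the mural markers. Of 29 members, 21 had contrasts above 0 and 8 below, with a median of 0.18, and 6 had an unadjusted p under 0.05, all positive, beside 5.2% of all genes in either direction. Without the 5 shallow water mice 20 were above 0 and the median was 0.18. Single water mice moved it, to 0.09 without mouse 69 and 0.30 without mouse 74. Col4a1 and Col4a2, which encode the chains of the main basement membrane collagen and stand head to head on opposite strands, had 0.52 ± 0.15 and 0.36 ± 0.14. Nid1, which encodes nidogen, the link between laminin and collagen IV, had fraction differences of 1.05 to 3.50 (median 2.79) in ethanol mice and 0.86 to 2.67 (median 1.86) in water mice, a contrast of 0.75 ± 0.26. With Lamc1, these 4 genes had 9 of 10 ethanol mice above the water mean in each case. They were named for low p or for their role, so this count follows in part from the choice.

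Of 21 Notch pathway genes tested, 15 had contrasts above 0 and 6 below, with a median of 0.22. Of these genes, 3 had an unadjusted p under 0.05, all positive, beside 5.2% of all genes in either direction. The median was 0.13 without ethanol mouse 60. Besides Notch3 these were Hey2, a target gene that encodes a transcriptional repressor, at 0.79 ± 0.36, and Maml1, which encodes a coactivator of the Notch complex, at 0.37 ± 0.17. The target gene Heyl had 0.45 ± 0.24. Of 19 Hippo-YAP genes 12 were above 0, with a median of 0.09 (-0.02 in thinned libraries), and Amotl2 was the member with the lowest p. Of 11 markers of vascular and meningeal fibroblasts, 5 were above 0 and 6 below, with a median of -0.03, and with a median of 0.28 without the shallow mice.

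Neuronal transcripts were far lower in the isolated fraction in both groups. All 20 neuron markers were lower in the isolated fraction, with median fraction differences of -4.33 in ethanol mice and -3.88 in water mice. The contrast was below 0 in 19 of 20, with a median of -0.38. Of the 20, 3 had an unadjusted p under 0.05, beside 5.2% of all genes. Without the 5 shallow water mice 12 were below 0 and 8 above, and the median was -0.09. In thinned libraries 18 of 20 were below 0, with a median of -0.34. The neuron markers summed to 589 to 1418 CPM (median 854) in the isolated fraction of ethanol mice and to 621 to 2032 CPM (median 1199) in that of water mice, against homogenate medians of 17945 CPM in ethanol mice and 17896 CPM in water mice.

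Syn1 and Syn2, which encode the synapsins of synaptic vesicles, had contrasts of -0.53 ± 0.21 and -0.56 ± 0.26, and both overlap a gene on the opposite strand. Thy1, a surface glycoprotein gene of projection neurons, had fraction differences of -5.12 to -3.59 (median -4.29) in ethanol mice and -4.76 to -2.26 (median -3.67) in water mice, a contrast of -0.63 ± 0.26. Of 22 genes of synaptic vesicles and exocytosis, 19 were below 0, with a median of -0.34, and 14 of 22 were below 0 with a median of -0.07 without the 5 shallow water mice. In thinned libraries 19 of 21 were below 0, with a median of -0.46. Stx1a, which encodes the SNARE protein syntaxin 1A, had -0.61 ± 0.26. Without the shallow water mice Syn1, Syn2, Thy1 and Stx1a had contrasts of -0.42, -0.33, -0.27 and -0.39. In thinned libraries the contrasts of these 4 genes were -0.61, -0.55, -0.65 and -0.67.

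Markers of upper layer cortical neurons had negative contrasts with and without those mice. Of 9 members 8 had contrasts below 0, with a median of -0.67, and all 9 were below 0 with a median of -0.60 without the shallow water mice. The 4 members with a mean of at least 20 counts in both fractions had a median of -0.32. Part of this lay in the homogenate, where the median ethanol minus water difference of the list was 0.38, beside -0.32 in the isolated fraction. Cux2, a transcription factor gene of upper layers, had 0.62 ± 0.34 in the homogenate and -0.01 ± 0.14 in the isolated fraction, a contrast of -0.67 ± 0.31. Rorb, a nuclear receptor gene of layer IV, had -0.42 ± 0.23. The homogenates held 707 to 1614 CPM of these 9 markers in ethanol mice and 471 to 1511 CPM in water mice, so that the groups overlapped over most of their range.

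The other neuronal lists gave medians near 0 or rested on few counts. Deep layer markers had 6 of 13 contrasts above 0 and a median of -0.03, interneuron markers 8 of 13 and 0.11, and striatal markers 5 of 10 and -0.05. Without the 5 shallow water mice these medians were 0.05, 0.34 and 0.59, and in thinned libraries they were -0.30 over 10 deep layer, 0.12 over 11 interneuron and 0.03 over 7 striatal markers. Striatal markers summed to 2652 CPM in the homogenate of water mouse 73, where the median of the water mice was 635 CPM and that of the ethanol mice 680 CPM. Ependymal and choroid plexus markers had 6 of 7 above 0 with a median of 0.79, but only 2 of the 7 had a mean of 20 counts in both fractions. That median was 0.58 without the shallow water mice and 0.30 without water mouse 73. Of the 10 blood cell markers 2 were tested, at a median of -0.09, and 3 were tested without the shallow water mice, at 0.36.

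Lists of known astrocyte functions held no called gene, and neither did the whole set of 13814 genes tested. Of 14 genes of glutamate uptake and the glutamine cycle, 6 were above 0 and 8 below, with a median of -0.04, which was -0.14 without the shallow water mice. The glial glutamate transporter genes Slc1a2 and Slc1a3 had -0.36 ± 0.22 and -0.24 ± 0.15, while Slc1a5, which encodes a neutral amino acid transporter that carries glutamine, had fraction differences of 1.66 to 3.80 (median 3.07) in ethanol mice and 1.64 to 3.36 (median 2.21) in water mice, a contrast of 0.82 ± 0.26. The contrast of Slc1a5 was 0.36 in thinned libraries and 1.07 without the shallow water mice. Of 15 genes of potassium and water channels and gap junctions, 11 were below 0, with a median of -0.12. Without the shallow water mice 12 of 15 were below 0, with a median of -0.25, and without water mouse 73 alone the median was -0.03.

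Metabolic lists leaned below 0. Of 25 genes of glycolysis, glycogen and lactate, 19 had contrasts below 0, with a median of -0.16. Of these genes, 4 had an unadjusted p under 0.05, all negative, beside 5.2% of all genes in either direction. Without the 5 shallow water mice 14 were below 0 and the median was -0.04. Besides Ldhb, they included the triose phosphate isomerase gene Tpi1 (-0.37 ± 0.15) and Ppp1r3c, which encodes a glycogen targeting subunit of protein phosphatase (-0.36 ± 0.17). Of 40 respiratory chain genes 33 were below 0, with a median of -0.10, and 22 of 40 without the shallow mice, with a median of -0.01. In thinned libraries 28 of 33 were below 0, with a median of -0.18. Cox8a, a cytochrome oxidase subunit gene, had -0.33 ± 0.15.

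Genes of cholesterol synthesis had the same sign with and without those mice. Of 22 genes 20 had contrasts below 0, with a median of -0.15, and 18 were below 0 with a median of -0.18 without the shallow water mice. Without water mouse 73 alone the median was -0.07. Sqle, which encodes squalene epoxidase, had median fraction differences of 0.15 in ethanol mice and 0.31 in water mice, a contrast of -0.30 ± 0.14. Idi1, which encodes an isomerase of the isoprenoid steps, had -0.30 ± 0.15. Only Sqle of these 22 genes had an unadjusted p under 0.05, beside 5.2% of all genes.

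The enzymes of ethanol and acetaldehyde metabolism had contrasts within a narrow range. Of 10 genes tested 4 were above 0 and 6 below, with a median of -0.04 and a range of -0.24 to 0.09, and 0 had an unadjusted p under 0.05. Adh5, the alcohol dehydrogenase gene that also handles formaldehyde, had -0.24 ± 0.14. Cat, which encodes catalase, had fraction differences of 1.08 to 1.58 (median 1.35) in ethanol mice and 1.01 to 1.89 (median 1.47) in water mice, a contrast of -0.14 ± 0.11. Aldh2, which encodes the mitochondrial enzyme that clears acetaldehyde, had -0.07 ± 0.12, with a 95% interval of -0.32 to 0.18. The signs of Cat and Aldh2 turned under 1 alternative each.

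Immediate early genes, transcribed within minutes of activity or handling, had contrasts above 0 in 18 of 27, with a median of 0.18. Of the 27, 3 had an unadjusted p under 0.05, all positive, beside 5.2% of all genes in either direction. Without the 5 shallow water mice 21 of 28 were above 0, with a median of 0.22, but without water mouse 73 alone the median was 0.04. Over the whole list, the median ethanol minus water difference was 0.13 in the isolated fraction and -0.09 in the homogenate. For Fosl2, Klf4 and Nr4a3 the larger part lay in the homogenate. Fosl2, a Fos family gene, had -0.52 ± 0.24 in the homogenate and 0.15 ± 0.20 in the isolated fraction, a contrast of 0.68 ± 0.30. Klf4, a zinc finger factor gene, had -0.30 ± 0.15 and 0.16 ± 0.10, a contrast of 0.46 ± 0.17, and Nr4a3, an orphan nuclear receptor gene, had -0.47 ± 0.30 and 0.13 ± 0.20.

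For Fosb, whose stable splice form accumulates with repeated drug exposure, the fraction difference was large in both groups, from 4.67 to 6.18 (median 5.78) in ethanol mice and from 3.18 to 5.97 (median 5.23) in water mice. Its contrast was 0.57 ± 0.28 and the groups overlapped. The fraction difference of the immediate early list had a median over members of 3.33 in ethanol mice and 3.33 in water mice. Per the labels, dissociation and bead capture followed the removal of the homogenate, so handling and cell type cannot be told apart in the fraction difference.

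Heat shock genes leaned the same way by a small amount, with 14 of 16 above 0 and a median of 0.11, and with 14 of 16 and 0.23 without the shallow water mice. With 1 mouse left out the median ran from 0.07, without water mouse 73, to 0.20, without ethanol mouse 75. Dnaja1, an Hsp40 gene, had 0.30 ± 0.14, and Hsp90aa1, the inducible Hsp90 gene, had 0.24 ± 0.13. Of 20 genes of the integrated stress and unfolded protein response, 10 were above 0 and 10 below, with a median of -0.01.

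Glucocorticoid response genes had contrasts below 0 in 12 of 17, with a median of -0.10. Of the 17, 3 had an unadjusted p under 0.05, all negative, beside 5.2% of all genes in either direction. The median was -0.06 without ethanol mouse 62, and in thinned libraries it was -0.01, with 9 of 16 below 0. Mt2, a metallothionein gene, had fraction differences of 0.18 to 1.25 (median 0.62) in ethanol mice and 0.59 to 1.89 (median 0.98) in water mice, a contrast of -0.54 ± 0.18. Hsd11b1, which encodes the enzyme that regenerates active glucocorticoid, had -0.59 ± 0.24, and Nfkbia, the NF-kB inhibitor gene, had -0.38 ± 0.17, which was -0.09 without the shallow water mice. The clock gene Per1, which glucocorticoids also induce, went to the other side at 0.23 ± 0.12, with all 10 ethanol mice above the water mean. Of 21 circadian clock genes 14 were below 0, with a median of -0.08, and 15 were below 0 with a median of -0.20 without the shallow water mice.

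Of 24 Toll-like receptor and NF-kB genes 14 were above 0, with a median of 0.06 (0.21 without the shallow water mice), and of 21 cytokine and chemokine genes 8 were above 0, with a median of -0.04 (0.06 without those mice). Cxcl14, a chemokine gene, had -0.43 ± 0.17. Of 18 interferon response genes 13 were above 0, with a median of 0.18, but the 9 well-counted members had a median of 0.07. Without water mouse 68 the list median was 0.09. Irf1, an interferon regulatory factor gene, had -0.35 ± 0.17. Of 13 antigen presentation genes 7 were above 0, with a median of 0.01 (0.12 without the shallow water mice). B2m, which encodes beta-2 microglobulin, had -0.31 ± 0.16, which was -0.02 without those mice.

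Of 11 reactive astrocyte genes tested, 7 were above 0, with a median of 0.11 (0.22 without the shallow water mice). S1pr3, a sphingosine 1-phosphate receptor gene, had fraction differences of 1.45 to 3.12 (median 2.48) in ethanol mice and 1.47 to 2.67 (median 1.97) in water mice, a contrast of 0.41 ± 0.19. Osmr, the oncostatin M receptor gene, had 0.48 ± 0.26. Neither passed the adjusted test.

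Ion channel and receptor genes had contrasts on both sides. Of 42 calcium handling genes 16 were above 0 and 26 below, with a median of -0.05. Cacna1h, a T-type calcium channel gene, had fraction differences of -2.51 to -1.36 (median -1.86) in ethanol mice and -3.53 to -1.15 (median -2.79) in water mice, a contrast of 0.73 ± 0.24 with all 10 ethanol mice above the water mean. Cacna1c, an L-type channel gene, had 0.52 ± 0.22, whereas Camk2g, a calcium/calmodulin kinase gene, had -0.42 ± 0.17.

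Of 22 glutamate receptor genes 9 were above 0, with a median of -0.16 (-0.04 without the shallow water mice), and Grm7, a presynaptic metabotropic receptor gene, stood against the list at 0.53 ± 0.18. Of 20 genes of GABA receptors, synthesis and uptake 15 were below 0, with a median of -0.14 (-0.23 without those mice). Gabra4, a GABA-A receptor subunit gene, had fraction differences of -3.90 to -2.11 (median -2.91) in ethanol mice and -3.02 to -1.50 (median -2.37) in water mice, a contrast of -0.66 ± 0.21. Of 34 cytosolic ribosomal protein genes 15 were above 0, with a median of -0.07, and 27 were above 0 with a median of 0.17 without the shallow water mice. In thinned libraries 19 of 24 were below 0, with a median of -0.16.

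**Figure D5:**
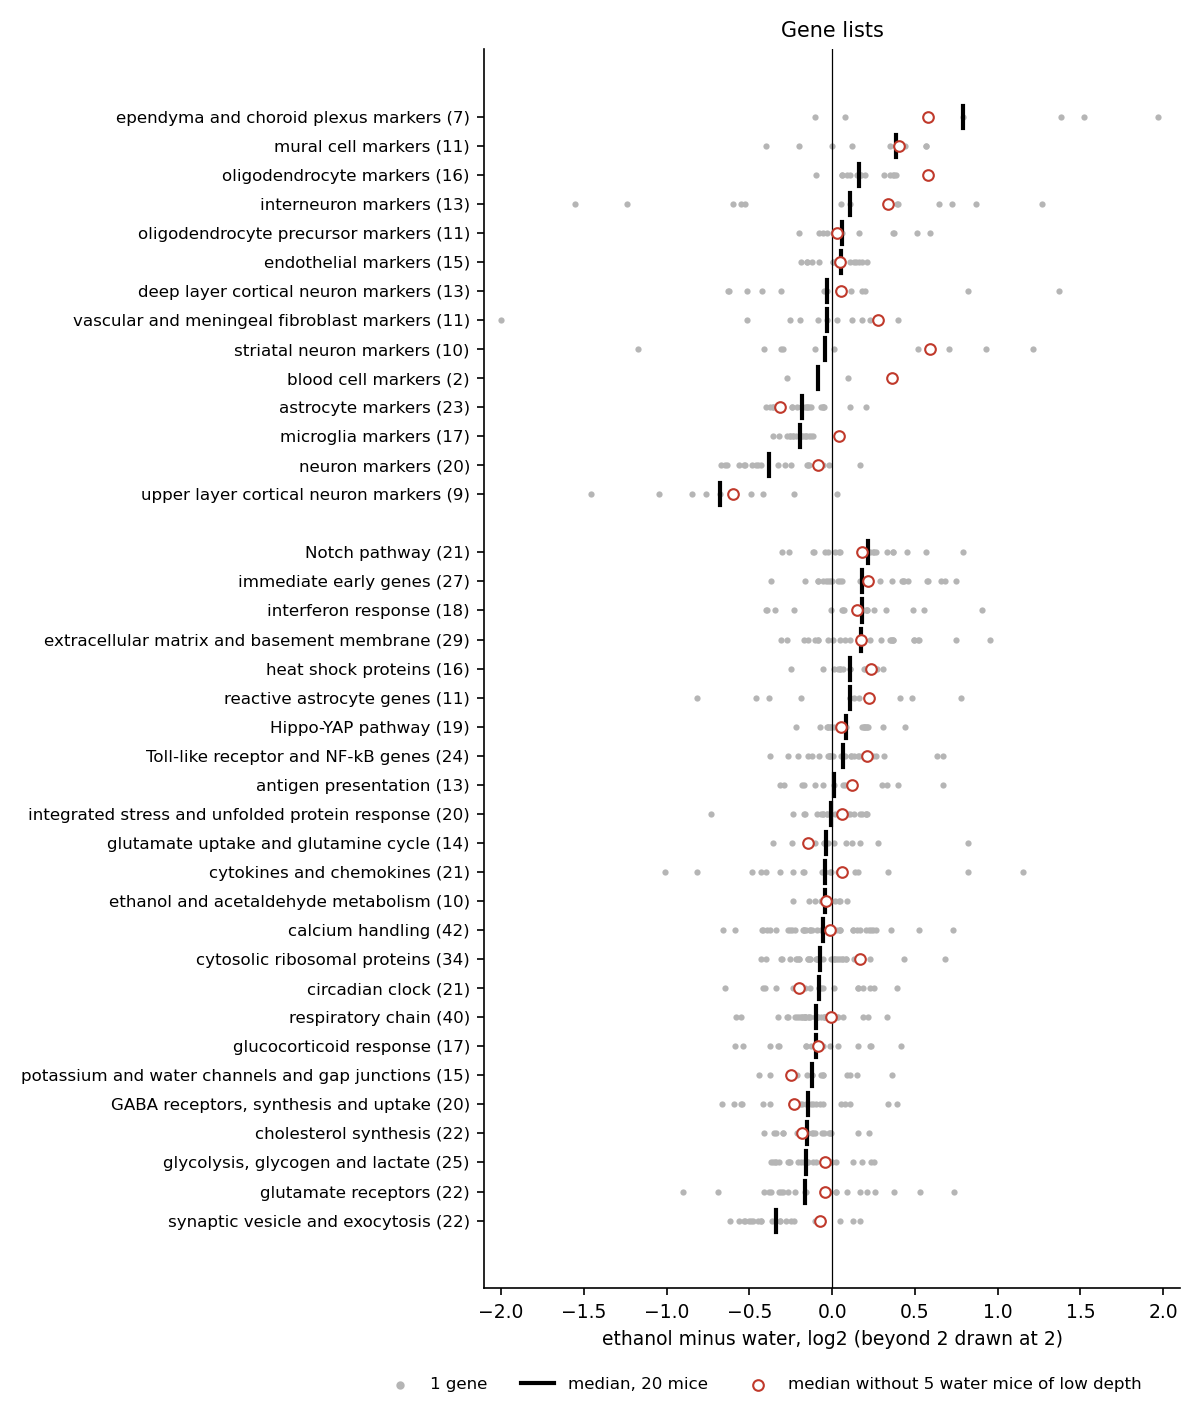
Ethanol contrast (fraction difference of ethanol mice minus that of water mice, log2) of each gene in 14 cell type lists (upper block) and 24 pathway lists (lower block), with the number of genes tested in brackets. Bars mark list medians over 20 mice and open circles the medians without the 5 shallow water mice; bar and circle lie apart for neuron (-0.38 and -0.09), microglia (-0.19 and 0.04) and oligodendrocyte markers (0.16 and 0.58), and close together for mural cell markers (0.39 and 0.40).

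All well-counted genes were also grouped by how far the isolation depleted or enriched them. Of 527 genes at least 4-fold lower in the isolated fraction, by the mean of both groups, 443 (84.1%) had contrasts below 0, with a median of -0.19, and the share was 61.7% with a median of -0.08 without the 5 shallow water mice. Of 761 genes at least 4-fold higher, 469 (61.6%) had contrasts above 0, with a median of 0.06, and the share was 79.5% with a median of 0.19 without those mice. Of 6084 genes within 2-fold, 3078 (50.6%) were above 0. The genes of a class are not independent replicates. Per mouse, the median over the 527 genes ran from -3.22 to -2.74 in ethanol mice and from -3.16 to -2.34 in water mice. The highest values, -2.34 and -2.51, were those of water mice 68 and 80, both with shallow libraries. For the 761 genes it ran from 2.55 to 2.96 in ethanol mice and from 1.97 to 3.11 in water mice. The groups overlapped in both classes. In libraries thinned to the smallest total, 81.1% of the genes at least 4-fold lower had contrasts below 0, with a median of -0.24, and 56.8% of those at least 4-fold higher had contrasts above 0, with a median of 0.05. The microglial and astrocyte lists had median fraction differences above 0 in both groups. Over all 20 mice their contrasts were below 0 in 17 of 17 and 21 of 23 cases. Without the 5 shallow water mice these counts were 8 of 17 and 23 of 23.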

How the data were processed

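The authors deposited raw read counts, 1 file per library, keyed by gene symbol, with 24421 genes and 5 tally lines. The tally lines name no gene and stayed out of library sizes and tests. Unaligned reads made up 37.4% to 81.5% of the isolated libraries of ethanol mice and 47.5% to 90.3% of those of water mice. The submitters' processing notes name HTSeq 0.5.3p9, Bowtie2 2.2.5, cutadapt 1.8, Picard 1.141, bcl2fastq 2.17 and DESeq2, with build mm10. Per the labels' protocols, libraries were poly(A) selected, directional, made with 15 PCR cycles and read as 150 bp pairs. Strand setting, annotation and handling of duplicates: not given in the sources used here.

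Counts were tested with edgeR 4.0.16 in R 4.3.3 (quasi-likelihood test with robust estimation, TMM scaling, expression filter over the 4 groups) in a model with a term for each of 20 mice and an isolated term for each treatment, and p values were adjusted over all genes by the Benjamini-Hochberg method. DESeq2 1.42.0, limma 3.58.1 and voom were alternatives, and permutation tests used SciPy 1.17.1. The code was tested on simulated data. Per-mouse values are log2 CPM with a prior count of 2. A floor of 3 counts equals 0.92 to 2.92 CPM in isolated libraries of ethanol mice and 1.02 to 5.95 CPM in those of water mice; it covers counting error only. Positions are from GENCODE M21.

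Isolated and homogenate libraries of 1 number come from 1 mouse, since per the labels the homogenate is an aliquot of the same suspension, so mouse was a block. The deviations of the 2 libraries of a mouse from their group means had a median correlation of 0.06 over 20 mice (-0.12 to 0.27), beside 0.00 between mice. In 4 of the 20 mice the isolated library correlated best with its own homogenate, among the homogenates of its group. The pairing thus rests on the labels. Genes were named as the 8 lowest p values in each direction among well-counted genes, up to 4 members of each of 38 lists, and 12 genes of earlier interest. List members were named for the lowest p or for their role. Counts of their mice beyond the water mean are therefore a description. Members and lists were chosen with earlier results of these data known. The homogenates of 4 mice without a second fraction here, and the isolated sample of water mouse 72, were not analysed here.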

Additional observations from a re-analysis of the deposited data

Results flagged for a closer look

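Among 166 groups of 10 mice (83 named genes in each treatment), 6 had 1 mouse far from the other 9, where chance gives about 1 in 20 groups. Myrf and Ugt8a, both oligodendrocyte markers, were among them. The fraction difference of Myrf in water mouse 73 was 1.17, where the next mouse stood at 2.79, and that of Ugt8a in the same mouse was 1.42, where the next stood at 2.60. In the homogenate of this mouse Myrf had 176 CPM and Ugt8a 128 CPM.

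For Tmem88 water mouse 68 stood at 0.12, with the next at 1.67, and for Hsd11b1 water mouse 70 stood at 0.0434, with the next at 1.26. Both mice were among the 5 with under 1000000 isolated counts. In ethanol mouse 75 Vtn stood at 2.15, with the next mouse at 3.11, and Per1 stood highest at 1.6, with the next at 1.39.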

How the results depend on the processing

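The count of genes past an adjusted p of 0.05 was 0 in each direction in every alternative run. The lowest adjusted p was 0.0548, for Emx2, without the 5 water mice under 1000000 isolated counts (793 genes at an unadjusted p under 0.05). It was 0.0915 with DESeq2, where Cspg4 came first, 0.318 with voom and 0.809 with limma on the per-mouse differences (826 genes). After thinning all libraries to the smallest total it was 0.391, and with no filter 0.347 (20348 genes). With no replicate block, so that the pairing of fractions was ignored, it was 0.432, with 746 genes at an unadjusted p under 0.05 and the same median SE (0.199). With 1 mouse left out it ran from 0.259 to 0.98, with 595 to 902 genes at an unadjusted p under 0.05. Without the block, genes at least 2-fold higher and lower in the isolated fraction numbered 2914 and 3152 in ethanol mice and 2796 and 3082 in water mice, within 1.5 times of the counts with it.

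With only genes of at least 20 counts in both fractions tested, 1864 and 1572 genes were higher and lower by at least 2-fold in isolated fractions of ethanol mice, and 1772 and 1520 in those of water mice, since fewer genes were tested. The contrast of Gfap was 0.0226 in thinned libraries and, with each mouse left out in turn, -0.349 to 0.0755 (without water mouse 74). Thinning gave 0.233 for Tmem88, 0.0918 for Cat and 0.22 for Irf1, and Aldh2 was 0.0469 without the shallow mice; the cause was not tested. Thinned libraries left no blood cell marker to test. Of 38 list medians, 13 changed sign with 1 mouse left out, each of them 0.16 or closer to 0, and 8 changed sign without the shallow mice. Of the 83 named genes, the contrast moved by over 1.5 times or changed sign in 23 without the shallow mice, in 22 of 81 after thinning and in 9 with 1 mouse left out, and 31 of 38 list medians did so with 1 mouse left out. Scaling by library totals moved the median contrast to 0.03. Depth limits the isolated fraction of water mice most.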
